A study of Homo sapiens with 8 samples.

Results

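Chromosome 21 was described from all of its windows in a table of open chromatin, 3334 of 256141 windows, which carries the gene AIRE near its gene-dense end. The windows were taken from the table by chromosome alone and not by their counts, though with earlier results of these data known. They were 150 bp long and started every 50 bp on the hg19 build, and joining windows no more than 100 bp apart gave 438 of the table's 35741 regions. The first window of the chromosome started at 11143851 and the last ended at 48088150. The gene-dense end, taken from 42.5 Mb on, held 1635 windows in 253 regions, and the rest of the chromosome held 1699 windows in 185 regions.

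All 8 libraries came from AIRE-Tet cells, a Tet-On Advanced line of HEK293 (human embryonic kidney cells) that carries a transgene for human AIRE under doxycycline control. The 4 groups held 2 biological replicates each. DoxEtop cells had 24 h of AIRE induction with 1.5 µM doxycycline and then 24 h of 2 µM etoposide. Dox cells had 1.5 µM doxycycline only, Etop cells had 2 µM etoposide for 24 h with no induction, and Control cells had neither agent. No group had doxycycline without the transgene, so the drug and AIRE cannot be told apart, and AIRE induction is used here for doxycycline given to this line. The counts measure open DNA and not expression, so they do not check that AIRE was induced.

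AIRE (autoimmune regulator) controls transcription in medullary thymic epithelial cells, where it switches on many tissue-restricted genes so that developing T cells can be tested against them. It acts largely on genes that lack active promoters, and topoisomerases and DNA breaks are among the factors it is known to work with. Etoposide traps topoisomerase II on cut DNA. FAIRE-seq extracts fixed chromatin with phenol and chloroform and reads the DNA left in the water phase, which carries few nucleosomes, and a high count marks open chromatin.

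In the RefSeq annotation the protein-coding neighbours in order along the chromosome are ICOSLG (a T-cell costimulatory ligand), DNMT3L (a partner of DNA methyltransferases without catalytic activity of its own), AIRE, PFKL (the liver-type subunit of phosphofructokinase, an enzyme of glycolysis) and CFAP410 (a protein of cilia). AIRE and PFKL lie side by side, so their promoters, from 250 bases before the start of each gene to 50 bases after it, are shown from RefSeq (GRCh38.p14, chromosome 21, plus strand), with each CG pair in capitals.
AIRE promoter: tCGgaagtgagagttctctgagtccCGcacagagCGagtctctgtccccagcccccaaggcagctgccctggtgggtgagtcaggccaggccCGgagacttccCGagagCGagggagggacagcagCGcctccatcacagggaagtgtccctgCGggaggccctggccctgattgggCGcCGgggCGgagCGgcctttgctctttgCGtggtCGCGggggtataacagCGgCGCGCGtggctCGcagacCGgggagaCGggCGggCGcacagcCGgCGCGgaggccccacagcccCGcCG
PFKL promoter: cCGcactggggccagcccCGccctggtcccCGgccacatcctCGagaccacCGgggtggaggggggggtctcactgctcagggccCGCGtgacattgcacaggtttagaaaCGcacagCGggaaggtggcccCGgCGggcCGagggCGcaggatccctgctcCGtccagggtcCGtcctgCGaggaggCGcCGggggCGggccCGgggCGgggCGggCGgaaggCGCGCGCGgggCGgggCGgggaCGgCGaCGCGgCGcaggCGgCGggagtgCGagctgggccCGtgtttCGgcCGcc
The AIRE promoter was 71.3% G and C with 29 CG pairs, and the PFKL promoter was 78.3% G and C with 40. Among the 488 promoters of chromosome 21 in the same table the median was 57.5% G and C with 9 CG pairs, and 23.4% of them held at least as many CG pairs as that of AIRE and 12.7% at least as many as that of PFKL. The letters C and G were counted on the plus strand, and a CG pair reads the same on both strands. No hg19 genome was used here, so neither promoter could be placed on the windows.

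The interval from 45.7 to 45.72 Mb, set for the endogenous AIRE gene, held 16 windows in 3 regions. With AIRE induction the first region was not called, the second fell and the far end of the third rose. The largest gain of the whole chromosome was in the third region. Windows were called by edgeR (quasi-likelihood F test) at an adjusted p under 0.05, Benjamini-Hochberg over the whole table, comparing the 4 induced libraries (DoxEtop and Dox) with the 4 uninduced libraries (Etop and Control) with etoposide as a second factor. Levels are in CPM, the count as a share of the scaled column total.

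The first region, from 45706401 to 45706650, held 2 windows. Its window at 45706401 had 2.61 and 4.35 CPM in DoxEtop and 4.00 and 3.09 CPM in Dox, against 1.15 and 2.19 CPM in Etop and 1.69 and 1.65 CPM in Control. Every induced library was above every uninduced one at that window, yet the difference did not pass the test (log2 fold change 1.09, SE 0.407, edgeR adjusted p = 0.0874). The counts behind it were small, 14 to 22 in the induced libraries and 8 to 14 in the uninduced libraries. With loess offsets along the mean log count, an alternative chosen after seeing the data, the same window was called (log2 fold change 1.37, edgeR adjusted p = 0.0334).

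The second region, from 45717501 to 45717850, held 5 windows, of which 4 fell with AIRE induction. Its window at 45717701 had 7 and 11 counts in DoxEtop and 14 and 8 in Dox, against 38 and 30 in Etop and 44 and 58 in Control. As levels these were 1.98 ± 0.582 CPM with induction and 6.5 ± 1.56 CPM without (SD, n = 4 each), with no overlap between the groups. The log2 fold change was -1.70 (SE 0.341, edgeR adjusted p = 0.000522). The window beside it, at 45717651, averaged 2.26 ± 0.581 CPM with induction and 7.01 ± 1.57 CPM without, a log2 fold change of -1.61 (SE 0.324, edgeR adjusted p = 0.00054). The loss grew along the region, since its first window, at 45717501, had a log2 fold change of -0.94 and did not pass the test (edgeR adjusted p = 0.0823). With etoposide present the window at 45717701 fell by 1.77 on the log2 scale in DoxEtop against Etop (edgeR adjusted p = 0.0373), and without it the value for Dox against Control was -1.63 (edgeR adjusted p = 0.0852). The calls at 45717651 and 45717701 were lost under limma-voom alone of the alternatives tried (limma adjusted p = 0.122 and 0.168). The calls at 45717551 and 45717601 were also lost when Control replicate 2 (edgeR adjusted p = 0.102 and 0.0677) or Dox replicate 2 (0.141 and 0.06) was left out, and that at 45717551 without Etop replicate 2 (0.0512) or DoxEtop replicate 1 (0.0589).

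The third region, from 45719301 to 45719850, began 1450 bp after the end of the second and held 9 windows. Its first windows differed little between the groups, with log2 fold changes of -0.14 to 0.19 over the 5 windows from 45719301 to 45719501. At 45719301 Etop replicate 1 stood apart at 1.01 CPM, below the 2.98 to 4.64 CPM of the other 7 libraries. Its last 2 windows rose with AIRE induction. At 45719701 the counts were 32 and 20 in DoxEtop and 12 and 24 in Dox, against 6 and 10 in Etop and 16 and 4 in Control. The levels were 4.38 ± 1.62 CPM with induction and 1.39 ± 0.782 CPM without (SD, n = 4 each), which gave a log2 fold change of 1.64 (SE 0.432, edgeR adjusted p = 0.0103). The lowest induced library, Dox replicate 1 at 2.29 CPM, was only just above the highest uninduced one, Etop replicate 2 at 2.19 CPM. limma-voom did not call the window at 45719701 (log2 fold change 1.76, limma adjusted p = 0.224). The window before it, at 45719651, had a log2 fold change of 1.23 (SE 0.402, edgeR adjusted p = 0.0463), and there Dox replicate 1 was below Etop replicate 2 and Control replicate 1. The call at 45719701 was lost when Control replicate 2 (log2 fold change 1.41, edgeR adjusted p = 0.0649), Dox replicate 2 (1.39, 0.0822) or DoxEtop replicate 1 (1.48, 0.0619) was left out. That at 45719651 was lost without any of these 3 libraries (edgeR adjusted p = 0.184, 0.264 and 0.233) or Etop replicate 1 (0.137), and under DESeq2 (DESeq2 adjusted p = 0.0684), limma-voom (limma adjusted p = 0.19) and the replicate block (edgeR adjusted p = 0.0552).

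**Figure D1:**
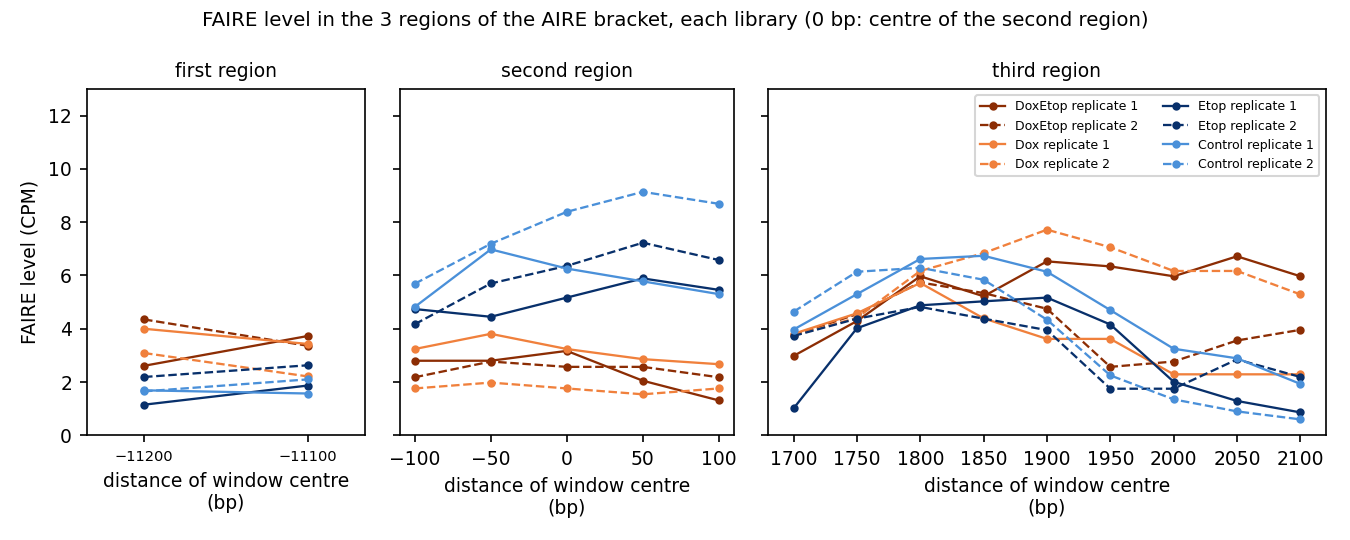
FAIRE level in CPM (vertical axis) of each window in the 3 regions of the AIRE interval against the distance of the window's centre from the centre of the second region in bp (horizontal axis), 1 line per library. The 4 induced libraries (red and orange) lie below the 4 uninduced libraries (blue) throughout the second region, and above them at the far end of the third, where they averaged 4.38 CPM and the uninduced libraries 1.39 CPM.

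Etoposide was not called at any of the 16 windows, the smallest edgeR adjusted p being 0.902. The files do not say which of the 3 regions belong to AIRE and which to a neighbour. The line also carries an AIRE transgene, and fragments of the transgene and of the endogenous gene cannot be told apart where their sequences match, so its part in these values was not tested.

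Over the whole chromosome, more windows were called lower than higher with AIRE induction, and the gains held a larger share of the calls in the gene-dense end. Of the 3334 windows, 242 (7.26%) were called, against 7.44% of all windows of the table. The 179 windows that fell were 5.37% of the chromosome's windows, against 6.17% of all windows, and the 63 that rose were 1.89%, against 1.27%. Chromosome 21 was thus near the background in total. In the gene-dense end 76 windows fell (4.65%) and 38 rose (2.32%), and in the rest 103 fell (6.06%) and 25 rose (1.47%). The share of losses among calls was 66.7% in the gene-dense end and 80.5% in the rest, a difference that was not tested because neighbouring windows share fragments. That share was 82.9% over the whole table, 70.1% on chromosome 20 and 79.6% on chromosome 22.

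The median log2 fold change over all windows, called or not, was 0.101 on chromosome 21 (0.130 in the gene-dense end and 0.075 in the rest) and 0.036 over the whole table. On chromosome 20 that median was higher, at 0.148, and on chromosome 22 it was 0.063. Tested as merged regions with Simes' p from edgeR, 59 regions fell (13.5%, against 12.9% of all regions) and 12 rose (2.74%, against 1.42%). The induced and uninduced libraries did not overlap in CPM at 442 windows (13.3%, against 12.5% of all windows), among them 180 of the 242 called. In the gene-dense end 25 of its 253 regions fell and 8 rose, and in the rest 34 of 185 regions fell and 4 rose. Chromosome 20 had 2.99% of its 3379 windows lower and 1.27% higher, and chromosome 22 had 4.92% of its 8666 windows lower and 1.26% higher.

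On chromosome 21 the excess of losses was mostly one of called windows. At an unadjusted edgeR p under 0.05 there were 411 lower and 376 higher windows, together 23.6% of the chromosome's windows. Over the whole table there were 35110 lower and 22736 higher, together 22.6%, so losses outnumbered gains more clearly there. Of all log2 fold changes on the chromosome 42.5% were below 0, against 47.5% over the whole table and 38% on chromosome 20. A minimum on summed counts, whose use by the authors is not given in the sources used here, can favour windows that are high in the uninduced libraries, whose column totals reached 8275911 against at most 5305079 in the induced libraries. Over the 2691 windows that reached a summed count of 129 both as they are and with the totals of the 2 arms exchanged, a choice made after seeing the data, 108 of the calls were lower and 55 higher. Windows that never entered the table cannot be regained in this way, so the part of such a minimum in the losses was not tested.

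The count of calls rested in part on single libraries and on the scaling. It was 90 without Control replicate 2, 103 without DoxEtop replicate 1 and 132 without Dox replicate 2. With loess offsets along the mean log count it was 190, of which 106 were lower and 84 higher, so the share of losses there was well under the 74.0% of the main test. Over the whole table that scaling gave 10612 lower and 4230 higher, against 15809 and 3253 in the main test. limma-voom called 8 windows, all higher, while over the whole table it called 859 of 256141 windows, 625 lower and 234 higher.

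**Figure D2:**
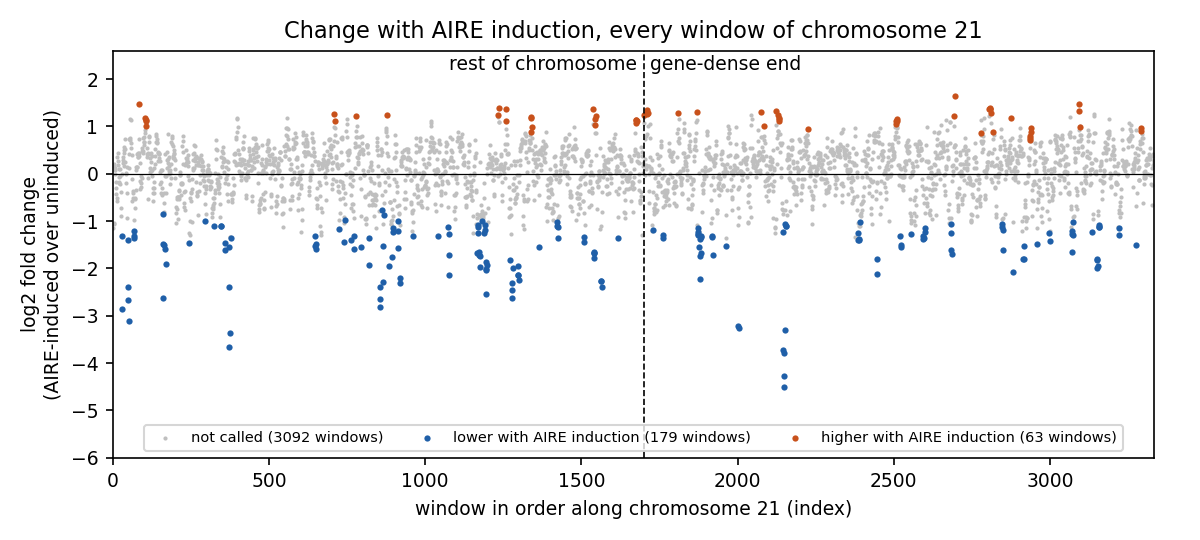
Log2 fold change with AIRE induction (vertical axis) for each of the 3334 windows in order along chromosome 21 (horizontal axis, index of the window), with the gene-dense end right of the dashed line. Windows called lower (blue, 179) reach -4.51, while windows called higher (orange, 63) do not pass 1.64.

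The deepest losses left almost no signal in the induced libraries, and are given here by 1 window for each region, that of smallest p. Their counts came mostly from the uninduced libraries, at 45029601 161 counts against 5 in the induced libraries. They could thus enter the table through the uninduced libraries alone, as could the losses named below for groups of 2 libraries. What this did to their fold changes and p was not tested. At 45029601, in a region from 45029501 to 45029850 in the gene-dense end, there were 2 and 1 counts in DoxEtop and 1 and 1 in Dox, against 41 and 26 in Etop and 39 and 55 in Control. The levels were 0.246 ± 0.086 CPM with induction and 6.13 ± 1.5 CPM without (SD, n = 4 each), which gave a log2 fold change of -4.51 (SE 0.517, edgeR adjusted p = 2.93e-08). All 5 windows of that region fell. The region with the next deepest loss ran from 32716051 to 32716650 in the rest of the chromosome, and its window at 32716451 had 2 and 4 counts in DoxEtop and 1 and 1 in Dox, against 32 and 27 in Etop and 25 and 49 in Control. Its log2 fold change was -3.66 (SE 0.521, edgeR adjusted p = 2.18e-06), and 4 of the 10 windows of the region fell.

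In the region that followed, of 2 windows from 44344151 to 44344350, the window at 44344201 had 2 and 3 counts in DoxEtop and 2 and 5 in Dox, against 63 and 28 in Etop and 12 and 50 in Control. Control replicate 1 was the lowest uninduced library there, at 1.45 CPM, still above the highest induced library at 1.1 CPM. The log2 fold change was -3.25 (SE 0.492, edgeR adjusted p = 6.48e-06). The other 7 of the 10 regions with the deepest losses lay in the rest of the chromosome, at 16438201, 15755751, 34961401, 38193151, 27107351, 40509351 and 35320551, with log2 fold changes of -3.10 to -2.30. All 10 stayed called in every fit that left out 1 library, and under DESeq2. None was called by limma-voom, and 9 of the 10 were not called with loess offsets along the mean log count, where the value was -1.36 at 45029601 (edgeR adjusted p = 0.219) and turned to 0.53 at 16438201.

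Some losses took a whole narrow region. Of the 73 regions with a loss, 21 had every window lower (4.79% of the chromosome's regions, against 3.88% of all regions). They were 150 to 350 bp wide, 8 lay in the gene-dense end, and 4 held a single window. Of the regions with 2 or more windows, 17 of 363 had every window lower (4.68%, against 3.19% of such regions in the whole table). No region had every window higher. The region from 38003051 to 38003400 lost all 5 of its windows, like that at 45029501, and 5 windows each also fell in wider regions, of 13 windows from 45246601 to 45247400 and of 9 windows from 47240401 to 47240950. In 3 regions the losses included windows with at most 5 counts in every induced library.

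Gains were smaller and lay mostly inside wider regions. After the window in the AIRE interval, the next named gains were at 38071751 and 38073401, in neighbouring regions, at 46238001 and at 40033351, with log2 fold changes of 1.39, 1.38, 1.36 and 1.36. At 38073401 the counts were 27 and 37 in DoxEtop and 28 and 28 in Dox, against 10 and 13 in Etop and 27 and 11 in Control. The levels were 5.97 ± 1.02 CPM with induction and 2.30 ± 0.891 CPM without (SD, n = 4 each), with SE 0.341 on the log2 scale and an edgeR adjusted p of 0.00595. This was the only one of the 10 named gains that stayed called in every fit that left out 1 library. Of the 10, 8 lost the call without Control replicate 2 and 8 without Dox replicate 2. Of the 10, 5 lost it without DoxEtop replicate 1, DoxEtop replicate 2 or Etop replicate 1, 4 without Etop replicate 2, 2 without Dox replicate 1 and 1 without Control replicate 1. At 46238001, in a region from 46237351 to 46238250 where 5 of 14 windows rose, the counts were 29 and 40 in DoxEtop and 27 and 46 in Dox, against 13 and 15 in Etop and 32 and 14 in Control. Its levels were 7.15 ± 2.35 CPM with induction and 2.78 ± 0.951 CPM without (SD, n = 4 each), with an edgeR adjusted p of 0.00294, and without Dox replicate 2 that p was 0.0646.

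The other 5 named gains, at 47390501, 44527301, 43655301, 42539901 and 43429451, all lay in the gene-dense end, with log2 fold changes of 1.28 to 1.33 and edgeR adjusted p of 0.0214 to 0.0419. Of the 10 named gains 7 were in the gene-dense end, and of the 10 named losses 2, a difference that was not tested. That end held 16 of the 27 regions with a gain, 29 of the 73 with a loss and 253 of all 438 regions. Of the 10 gains, limma-voom lost 8, loess offsets along average log2 CPM lost 2 and loess offsets along the mean log count lost none. The gain at 43655301 was also lost under DESeq2 (DESeq2 adjusted p = 0.0527) and with the replicate block (edgeR adjusted p = 0.0557). Gains and losses met in 4 regions, from 34851601 to 34852800, from 35013801 to 35015200, from 38072851 to 38074100 and from 47877901 to 47879150.

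**Figure D3:**
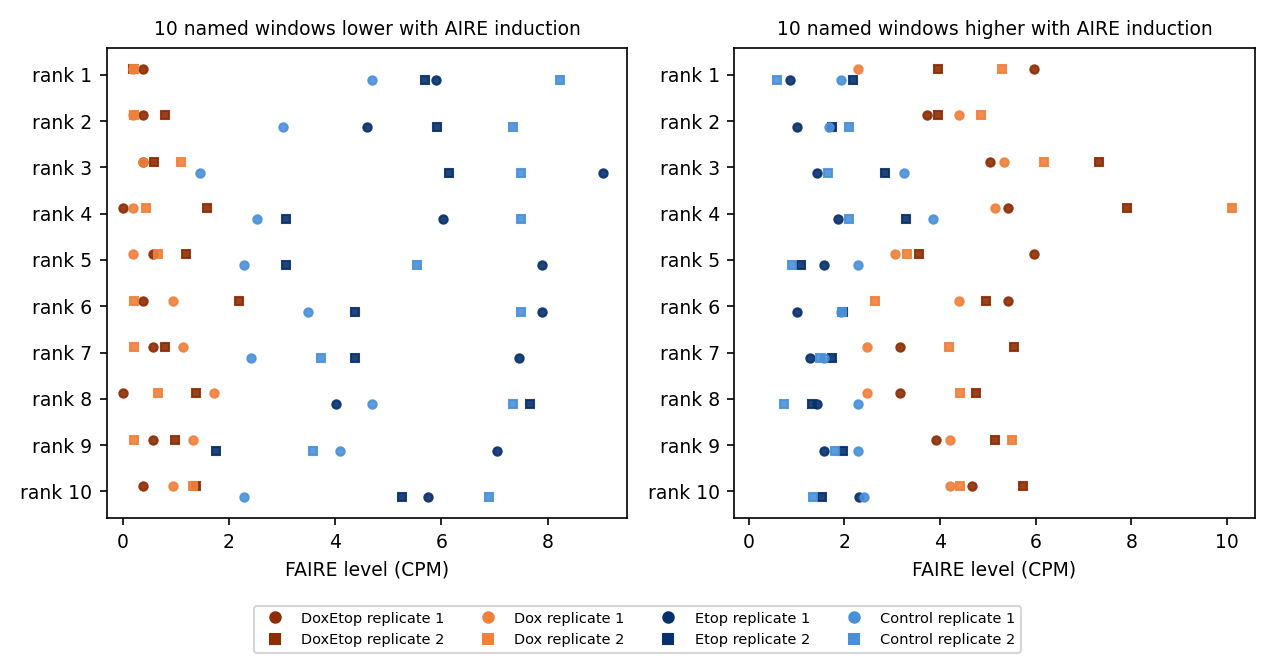
FAIRE level in CPM (horizontal axis) in each of the 8 libraries for the 10 named losses (left) and the 10 named gains (right), ranked by log2 fold change from top to bottom. Induced libraries (red and orange) and uninduced libraries (blue) do not overlap in any of the 20 windows, since this was part of the rule that chose them.

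The uninduced libraries did not stand equally far from the induced ones. Among the 179 windows that fell, Control replicate 1 was the uninduced library nearest to the induced libraries in 113, and Etop replicate 2 in 40. Among the 63 that rose, Control replicate 1 was nearest in 24 and Etop replicate 2 in 19. These counts cover called windows only and were not made over the whole table. Across the 3334 windows, log2 CPM of Control replicate 1 correlated with the 4 induced libraries at 0.386 to 0.501, with the Etop libraries at 0.348 and 0.475, and with Control replicate 2 at 0.519. Without Control replicate 1 the chromosome had 305 calls, 224 lower and 81 higher. Over all pairs of libraries the correlation had a median of 0.239 between AIRE states and 0.512 between groups of the same state. The points of these correlations are overlapping windows that share libraries, so they are descriptions.

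The shares of losses and gains varied with the width of the region, and these shares were not tested against each other. Where the merged region was at most 300 bp wide, 51 of 470 windows fell (10.9%) and 2 rose (0.426%), against 9.93% and 0.533% in such regions of the whole table. In regions over 300 and up to 500 bp, 61 of 545 fell (11.2%) and 1 rose (0.183%), against 7.27% and 0.83%. In regions over 1000 bp, 27 of 1458 windows fell (1.85%) and 23 rose (1.58%), against 4.97% and 1.76%. Most gains lay in regions wider than 500 but not wider than 1000 bp, where 37 of 861 windows rose (4.3%), against 1.45% in the whole table, and 40 fell (4.65%), against 4.92%. Within regions of 10 or more windows, lost windows stood at a median of 58.8% of the level of the region's highest window and gained windows at 78.1%, beside 65.6% for all windows of such regions. The whole table had 62% for lost, 74.7% for gained and 69.2% for all windows of such regions.

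**Figure D4:**
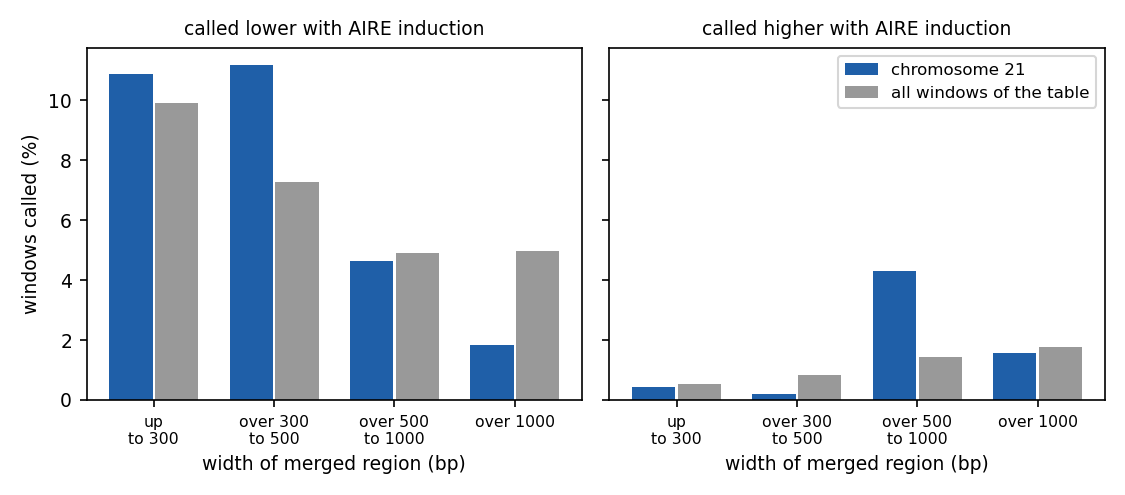
Percentage of windows called lower (left) and higher (right) with AIRE induction, by the width of the merged region in bp (horizontal axis), for chromosome 21 (blue) and all windows of the table (grey). On chromosome 21 losses made up 1.85% of windows in regions over 1000 bp, and gains reached 4.3% in the class that ends at 1000 bp.

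The highest windows of the 5 strongest regions were not called. The strongest of all, at 44299651 in a region from 44298901 to 44299950, had 75 and 76 counts in DoxEtop and 62 and 47 in Dox, against 79 and 50 in Etop and 91 and 111 in Control. Its levels of 12.8 ± 2.1 CPM with induction and 12.5 ± 2.78 CPM without (SD, n = 4 each) differed by less than the spread between libraries (log2 fold change 0.03, edgeR adjusted p = 0.942). Those of the next regions, at 34915201, 30446001, 48055401 and 45553351, had log2 fold changes of -0.15 to 0.39. In the tenth of the windows with the highest levels, at 6.15 CPM or more, 3 fell and 8 rose among 334, which is 3.29% called, against 7.23% in the same top class of the whole table, which begins at 5.73 CPM. The widest region, of 2700 bp from 45138001 to 45140700 with 48 windows, held 1 window that rose and none that fell.

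The windows were unevenly spread. The gene-dense end held 293 windows per Mb, and the rest 54.2. Regions in the gene-dense end had a median width of 300 bp with 9.09% over 1000 bp, and those in the rest had a median width of 400 bp with 20% over 1000 bp. The segment from 45000001 to 46000000, which includes AIRE, held more windows than any other, 619 (18.6% of the chromosome), of which 28 fell and 7 rose. That is 5.65% called, below the 7.26% of the chromosome. The segments with the next highest numbers of windows were from 38000001 to 39000000 (323 windows, 21 lower and 8 higher, 8.98% called) and from 46000001 to 47000000 (293 windows, 11 lower and 13 higher, 8.19% called). Of each library's window counts, chromosome 21 took 1.31% to 1.41% in the induced libraries and 1.27% to 1.35% in the uninduced libraries. The column totals behind these shares were 4489871 to 5305079 in the induced libraries and 4568818 to 8275911 in the uninduced libraries. They are sums over overlapping windows, not sequencing depths.

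In etoposide-treated cells, the effect of AIRE induction (DoxEtop against Etop, 2 libraries each) was called at 72 windows of the chromosome (2.16%, against 2.88% of all windows), 63 lower (1.89%, against 2.43% of all windows) and 9 higher (0.27%, against 0.45%). The gene-dense end held 28 of the losses (1.71% of its windows) and 8 of the gains (0.489%), and the rest held 35 (2.06%) and 1 (0.0589%). As merged regions by Simes' p from edgeR, 26 fell (5.94%, against 5.36% of all regions) and 4 rose (0.913%, against 0.613%). At 44344151 there were 0 and 3 counts in DoxEtop, against 63 and 28 in Etop, a pooled level 27.4-fold lower in DoxEtop (95% interval 9.08 to 135, counting error only). Its edgeR log2 fold change was -4.63 (SE 0.799, adjusted p = 0.000552). The named windows of 4 other regions, at 45029651, 32716451, 38193151 and 27107351, had log2 fold changes of -3.79 to -3.04.

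The gains in etoposide-treated cells included a broad one at 46221601, in a region from 46221451 to 46222450 where 4 of 18 windows rose. There DoxEtop had 56 and 57 counts, against 19 and 21 in Etop, at 10.9 ± 0.585 CPM in DoxEtop and 3.67 ± 1.33 CPM in Etop (SD, n = 2 each). The edgeR log2 fold change was 1.60 (SE 0.383, adjusted p = 0.0117), and for Dox against Control it was 0.18. The largest gain was at 47390451, with 18 and 26 counts in DoxEtop against 5 and 1 in Etop, an edgeR log2 fold change of 3.01 (SE 0.703, adjusted p = 0.00984), beside 0.57 for Dox against Control. At 33785051 DoxEtop had 19 and 27 counts, against 6 and 3 in Etop (edgeR log2 fold change 2.48, adjusted p = 0.0196), and Dox against Control gave -0.20. The test of the difference between the effects of AIRE induction with and without etoposide, given below, called 0 windows of the chromosome. The other named gains, at 46237901 and 44527851, had edgeR log2 fold changes of 1.65 and 1.61, beside 1.16 and 0.52 for Dox against Control. These calls rested on single libraries: leaving out DoxEtop replicate 1 gave 0 on the chromosome, leaving out Etop replicate 1 gave 16 and leaving out Etop replicate 2 gave 202. Without DoxEtop replicate 2 the fitted values at 44344151 and 27107351 were -8.52 and -8.1, since the remaining DoxEtop library held 0 counts there, and they are no measure of size. With loess offsets along the mean log count 41 were called, 19 lower and 22 higher, at which scaling the value at 32716451 turned to 0.04. Over the whole table that scaling gave 3283 lower and 1795 higher.

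Without etoposide (Dox against Control, 2 libraries each), 22 windows fell (0.66%, against 0.848% of all windows, or 0.864% called in either direction). Of these, 5 were in the gene-dense end (0.306% of its windows) and 17 in the rest (1%). As merged regions 5 fell (1.14%, against 1.84% of all regions) and none rose (0.0168% of all regions). At an unadjusted edgeR p under 0.05, 203 windows were lower and 145 higher (together 10.4%), against 19247 and 8702 over the whole table (10.9%). After adjustment no window rose by edgeR (0%, against 0.0156% of all windows), and neither DESeq2 nor limma-voom called a gain. There were 4 gains without Etop replicate 1 and 5 without Etop replicate 2. The deepest loss was again at 45029601, with a single count in each Dox library and 39 and 55 in Control, a pooled level 30.7-fold lower in Dox (95% interval 8.26 to 257). Its edgeR log2 fold change was -4.83 (SE 0.762, adjusted p = 0.000613). At 32716501 each Dox library had 1 count and the Control libraries 26 and 49, 24.5-fold lower in Dox (6.54 to 206). At 16438201 the Dox libraries had 1 and 2 counts and the Control libraries 21 and 50, 15.4-fold lower in Dox (5.08 to 76.7). The calls fell to 0 without Control replicate 2, without Dox replicate 1 or without Dox replicate 2. They numbered 40 without Control replicate 1 or without Etop replicate 2, and 36 without Etop replicate 1.

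The test of the difference between these effects was the interaction of AIRE induction and etoposide. It called 0 windows of the chromosome by edgeR, DESeq2 and limma-voom, and edgeR called 0% of the table. At an unadjusted edgeR p under 0.05 there were 135 windows (4.05%, against 4.14% of all windows). The window with the smallest p was 46221451, with 28 and 20 counts in DoxEtop and 10 and 6 in Dox, against 3 and 5 in Etop and 22 and 24 in Control. Its log2 fold change was 2.65 for DoxEtop against Etop and -0.92 for Dox against Control, a difference of 3.58 (SE 0.881, edgeR adjusted p = 1). It starts the region of the gain at 46221601. The 242 windows called over all 8 libraries had the same sign in both comparisons, which the call over all libraries favours. Their median log2 fold change was -1.64 in DoxEtop against Etop and -1.43 in Dox against Control for the losses, and 1.25 and 1.09 for the gains.

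Etoposide itself (DoxEtop and Etop against Dox and Control, 4 libraries each) called 0 windows of the chromosome by edgeR, DESeq2 and limma-voom, and edgeR called 0% of the table. At an unadjusted edgeR p under 0.05 there were 211 windows (6.33%, against 5.83% of all windows), 156 higher and 55 lower with etoposide. In the gene-dense end 135 of 1635 windows (8.26%) were under 0.05 and in the rest 76 of 1699 (4.47%). The window with the smallest p, at 44727001, had 12 and 11 counts in DoxEtop and 52 and 24 in Etop, against 5 and 7 in Dox and 7 and 11 in Control. Its log2 fold change was 1.74 (SE 0.441, edgeR adjusted p = 0.618). At 45395451 DoxEtop had 50 and 50 counts and Etop 56 and 38, against 11 and 26 in Dox and 43 and 31 in Control, at 8.90 ± 0.862 CPM with etoposide and 4.41 ± 1.61 CPM without (SD, n = 4 each). That window did not overlap between the groups, as was the case for 91 windows of the chromosome (2.73%, against 2.58% of all windows), and its log2 fold change of 1.0 had an edgeR adjusted p of 0.639.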

How the data were processed

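FAIRE-seq libraries of formaldehyde-fixed AIRE-Tet cells were sequenced as paired ends of 100 bp, each library 2 times, per the labels' protocols. The submitters' processing notes name hg19 as the build and list Trim Galore, Bowtie and Bowtie2 with no version. How windows were chosen and fragments counted is not given in the sources used here, and input libraries were not analysed here. The authors deposited raw counts per window and library. Summed over the 8 libraries, windows of chromosome 21 had 113 counts or more (median 162), so a window could enter the table through the group where it was high. filterByExpr removed 0 windows. Replicates differed by more than sampling noise (chi-square per degree of freedom 1.837 to 3.077), so none was counted as a repeat.

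The test was run in R 4.3.3 with edgeR 4.0.16 (TMM scaling, glmQLFit and glmQLFTest, two-sided) on all 256141 windows. The additive model, with AIRE induction and etoposide as factors, had 5 residual degrees of freedom, and a model with 1 mean per group had 4. CPM used the TMM-scaled totals, and log2 CPM a prior count of 2. DESeq2 1.42.0 and limma 3.58.1 were alternatives. Where a group held few counts, the interval of the pooled ratio is from the exact binomial distribution.

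In each direction up to 10 regions (5 for groups of 2 libraries) were named by their called window of smallest p whose groups did not overlap, in order of log2 fold change. Regions in the AIRE interval, the 5 strongest, the 3 widest and, without calls, the 3 of smallest p were also named. The members and these rules were chosen with earlier results of these data known.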

Additional observations from a re-analysis of the deposited data

How the results depend on the processing

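Overlapping windows share fragments, and the small number of libraries limits the precision, so window counts are not counts of independent events. DESeq2 size factors, loess offsets along average log2 CPM (234 calls for AIRE induction) and DESeq2 (207) kept the AIRE count within 1.5 times of 242. The count was 137 with at least 160 summed counts, 8 with limma-voom, 71 as merged regions and 90 to 305 with 1 library left out. Requiring 129 counts with the totals of induced and uninduced libraries exchanged, chosen after seeing the data, left 163 calls, 108 lower and 55 higher. For DoxEtop against Etop (72 calls) the count was 34 with at least 160 summed counts, 19 with DESeq2, 0 with limma-voom, 41 with loess offsets along the mean log count, 30 as merged regions, 35 with 129 counts and exchanged totals, and 0 to 202 with 1 library left out. For Dox against Control (22 calls) it was 4 with DESeq2, 0 with limma-voom, 5 with loess offsets along the mean log count, 5 as merged regions, 10 with 129 counts and exchanged totals, and 0 to 40 with 1 library left out. With at least 160 summed counts Dox against Control had 22 calls, of which 2 were higher. The etoposide and interaction counts were 0 under every alternative run.

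The sign turned with loess offsets along the mean log count at 16438201 for AIRE induction (0.53), at 32716451 for DoxEtop against Etop (0.04) and at 45719401 (-0.01). Among windows of the AIRE interval that were not called, it also turned at 45719301 without Etop replicate 1 (-0.17, in a range of -0.17 to 0.39 over the libraries left out), at 45719451 without Control replicate 1 (0.04) or Dox replicate 1 (0.14; range -0.11 to 0.14), and at 45719501 without Dox replicate 2 (-0.02; range -0.02 to 0.4). The cause was not tested. Deviations of same-numbered libraries correlated weakly, at -0.0776 to 0.132. From 2 replicates per group this cannot tell whether same-numbered libraries shared a batch. With the replicate block 226 windows were called for AIRE induction, 65 for DoxEtop against Etop, 20 for Dox against Control and 0 for etoposide and the interaction.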
